A study of Homo sapiens with 14 samples.

Results

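A set of 8 genes that mark the surface of naïve and primed human embryonic stem cells (hESCs) were examined for binding of the BAF chromatin remodelling complex and of SOX2. The 4 naïve markers were SUSD2, F11R, A4GALT and ST6GAL1, and the 4 primed markers were THY1, CD24, B3GAT1 and PTPRZ1. Each gene body of GENCODE release 44 (hg38) was taken with 60 kb on each side, and the peaks that overlapped this window were counted and placed. The 8 genes were set against the same windows of all 20033 protein-coding genes on chromosomes 1 to 22, X and Y.

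Naïve hESCs resemble the epiblast before implantation and primed hESCs a later stage, and the 2 states can be separated by flow cytometry because they carry different proteins and glycans on their surface. SUSD2 is a transmembrane protein with a sushi domain that is used to sort naïve cells, and F11R encodes the tight junction protein JAM-A. A4GALT is the galactosyltransferase that makes the glycolipid Gb3 (CD77), and ST6GAL1 is the sialyltransferase that caps N-glycans and creates CD75 epitopes. On the primed side, THY1 (CD90) and CD24 are small GPI-anchored glycoproteins, B3GAT1 is the glucuronyltransferase that makes the HNK-1 epitope (CD57), and PTPRZ1 is a receptor tyrosine phosphatase that binds pleiotrophin and contactins. The BAF complex uses ATP to move nucleosomes at promoters and enhancers. It holds either BRG1 (SMARCA4) or BRM (SMARCA2) as its ATPase, and BAF155 (SMARCC1) is a scaffold subunit. SOX2 is a pluripotency transcription factor that binds DNA together with OCT4.

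All libraries came from chromatin immunoprecipitation and sequencing (ChIP-seq) of 1 unmodified hESC line, WIBR3, grown on inactivated mouse fibroblast feeders. Naïve cells had been converted from primed cells in 5i/L/A, a serum-free medium with kinase inhibitors and LIF, and expanded as a polyclonal culture, while primed cells were kept in serum-containing medium with FGF2. Of 14 samples, 10 had a peak list and 4 were inputs. Naïve as well as primed cells had 2 SOX2 lists with identical positions, which were counted as 1 sample, so each state had 1 list per antibody, no value below has a replicate error, and no difference between the states was tested. Intervals are exact, at the 95% level, and cover counting error only.

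The naïve lists held 57884 BRG1, 62338 BAF155, 17413 BRM and 1940 SOX2 peaks, and the primed lists held 15611, 58352, 167 and 9290. List lengths were not set against the read totals of the libraries, and a missing peak means a call below the threshold of the peak caller. BAF regions are the merged BRG1 and BAF155 peaks of a state. A region was common where it shared at least 25% of either partner with a region of the other state, and otherwise naïve-only or primed-only. The labels of the states were checked at genes known to mark them. Windows of all 5 naïve state genes (KLF17, DPPA3, DPPA5, DNMT3L and TFCP2L1) had more naïve-only than primed-only regions. Windows of all 4 primed state genes (ZIC2, SFRP2, DUSP6 and SOX11) had more primed-only regions, though SOX11 had only 1, beside 0 naïve-only ones. Over all protein-coding genes 66.1% of windows had more naïve-only and 21.2% more primed-only regions. Promoters of all 5 naïve state genes carried naïve BAF and 1 carried primed BAF, whereas all 4 promoters of primed state genes carried BAF in both states.

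Sequences of the sites that the results below turn on are shown first, as 200 bases of the plus strand of hg38 at the midpoint of a peak. Capitals mark matches, on either strand, to the letters CATTGT or CTTTGT of SOX factors, ATGCAAAT of OCT factors, GCCNNNGGC of TFAP2 factors, and GGGTGGGGC of KLF factors, the last being 1 of 4 spellings searched (the others were GGGTGTGGC, GGGCGTGGC and GGGCGGGGC). ZIC (CCTGCTG) and TEAD (GGAATG) letters were also searched, and no match lay in these windows. For F11R, ST6GAL1, CD24 and PTPRZ1 the window is that of the strongest SOX2 peak outside exons, which was called in primed cells: at F11R (chr1:160981616-160981815, intergenic), ST6GAL1 (chr3:186999066-186999265, intron), CD24 (chr6:106979697-106979896, intergenic) and PTPRZ1 (chr7:121938573-121938772, intron). The naïve BRM sites of SUSD2 (chr22:24189781-24189980, intergenic) and A4GALT (chr22:42743716-42743915, intergenic) are those of highest fold whose nearest protein-coding start site is that of the gene. The B3GAT1 site (chr11:134418547-134418746, intron) was added after its values were seen, because it is the naïve BRM peak of highest fold in the 8 windows.
F11R SOX2 site: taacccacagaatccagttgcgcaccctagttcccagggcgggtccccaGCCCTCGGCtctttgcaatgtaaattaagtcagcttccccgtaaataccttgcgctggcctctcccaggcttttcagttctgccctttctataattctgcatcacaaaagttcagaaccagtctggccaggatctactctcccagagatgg
ST6GAL1 SOX2 site: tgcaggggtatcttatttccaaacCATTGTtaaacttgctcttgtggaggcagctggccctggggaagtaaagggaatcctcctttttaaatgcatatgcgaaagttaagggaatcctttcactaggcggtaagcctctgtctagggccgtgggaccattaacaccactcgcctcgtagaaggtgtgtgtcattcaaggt
CD24 SOX2 site: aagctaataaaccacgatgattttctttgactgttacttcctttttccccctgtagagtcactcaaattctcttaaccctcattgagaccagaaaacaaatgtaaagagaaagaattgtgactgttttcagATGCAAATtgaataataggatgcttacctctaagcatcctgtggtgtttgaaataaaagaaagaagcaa
PTPRZ1 SOX2 site: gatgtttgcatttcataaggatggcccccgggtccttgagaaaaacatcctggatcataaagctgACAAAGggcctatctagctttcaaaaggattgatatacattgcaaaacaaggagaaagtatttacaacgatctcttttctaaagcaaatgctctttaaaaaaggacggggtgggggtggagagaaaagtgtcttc
SUSD2 BRM site: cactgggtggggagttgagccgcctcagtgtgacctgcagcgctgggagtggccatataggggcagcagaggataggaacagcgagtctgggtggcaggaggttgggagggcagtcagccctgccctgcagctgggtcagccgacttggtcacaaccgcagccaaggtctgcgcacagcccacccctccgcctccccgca
A4GALT BRM site: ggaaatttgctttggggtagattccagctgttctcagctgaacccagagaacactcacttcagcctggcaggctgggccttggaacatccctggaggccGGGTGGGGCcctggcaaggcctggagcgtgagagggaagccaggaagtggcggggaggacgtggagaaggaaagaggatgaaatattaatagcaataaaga
B3GAT1 BRM site: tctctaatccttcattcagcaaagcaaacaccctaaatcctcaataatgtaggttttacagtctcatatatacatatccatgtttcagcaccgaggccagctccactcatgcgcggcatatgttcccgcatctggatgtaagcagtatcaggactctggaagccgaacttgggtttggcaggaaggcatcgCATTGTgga

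To ask whether BAF sat at these genes in the state whose surface they mark, the regions of each class were counted in the 8 windows. The 4 naïve markers lay in windows with many naïve-only BAF regions. The naïve-only and primed-only counts were 11 and 1 at SUSD2, 16 and 0 at F11R, 25 and 3 at A4GALT, and 20 and 2 at ST6GAL1. The primed markers did not share a single pattern. THY1 had 1 naïve-only and 6 primed-only regions and PTPRZ1 had 1 and 8, whereas CD24 had 6 and 2 and B3GAT1 had 3 and 1. Thus 6 of 8 windows held more naïve-only than primed-only regions, against a background of 66.1% of protein-coding genes, and 2 of 8 held more primed-only regions, against 21.2%.

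The excess over the background lay in the size of the differences. The difference of naïve-only minus primed-only regions was 22 at A4GALT, and 106 of the 20033 genes had a higher one. It was 18 at ST6GAL1, with 271 genes higher, 16 at F11R, with 467 genes higher, and 10 at SUSD2, with 1975 genes higher. These are counts in windows of unequal width, and per 100 kb the naïve-only regions numbered 16.8 at A4GALT, 10.9 at F11R, 8.62 at SUSD2 and 7.46 at ST6GAL1. At a fold of at least 4 the difference turned to -3 at A4GALT and -2 at ST6GAL1 and was 1 at F11R and SUSD2. At the other end, 212 genes had a lower value than PTPRZ1, at -7, and 429 a lower value than THY1, at -5. From BRG1 peaks alone the difference was 0 at both genes, and at THY1 it was -1 with flanks of 20 kb or 100 kb. CD24 at 4 and B3GAT1 at 2 lay near the median of all genes, which was 2, in a range of -32 to 42. Summed over the naïve markers, 72 of 78 state-specific regions were naïve-only (92.3%, interval 84.0 to 97.1%). Over the primed markers the count was 11 of 28 (39.3%, interval 21.5 to 59.4%), and over all protein-coding windows the share was 64.0%. Without PTPRZ1 the primed share was 52.6%, and without each of the other 3 genes in turn it was 25 to 47.6%. Both shares fell when weak peaks were removed, and at a fold of at least 4 they were 33.3% (3 of 9 regions) and 11.1% (1 of 9), with 22.2% over the genome.

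**Figure D1:**
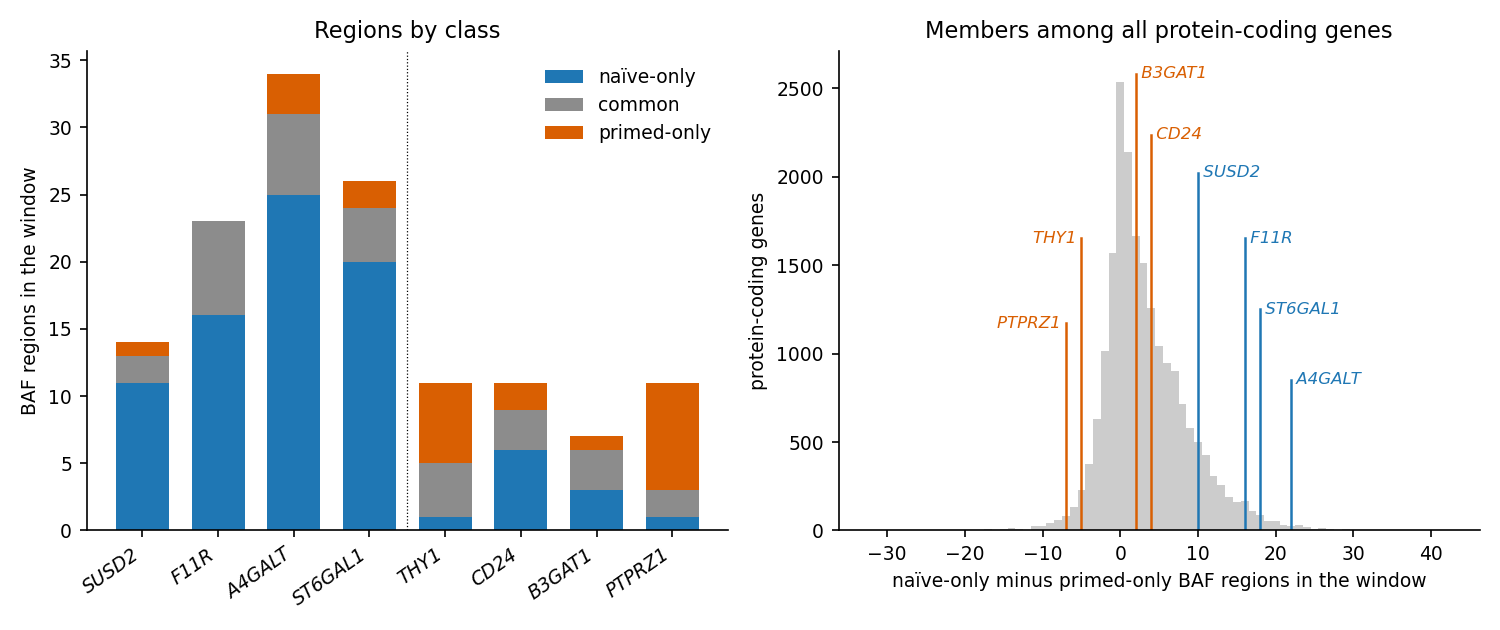
BAF regions in the windows of the 8 genes. Left, stacked bars give the number of naïve-only, common and primed-only regions (y axis) per gene (x axis), with naïve markers left of the dotted line; right, the grey histogram gives the number of protein-coding genes (y axis) by naïve-only minus primed-only regions (x axis), and lines of arbitrary height mark the 8 genes. The 4 naïve markers lie between 10 and 22, THY1 and PTPRZ1 at -5 and -7, and CD24 and B3GAT1 close to the median of 2.

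The single antibodies differed at the primed markers. BRG1 peaks in naïve and primed cells numbered 10 and 2 at SUSD2, 19 and 3 at F11R, 25 and 2 at A4GALT, and 16 and 2 at ST6GAL1. They numbered 4 and 4 at THY1, 8 and 3 at CD24, 5 and 3 at B3GAT1, and 3 and 3 at PTPRZ1. More naïve than primed BRG1 peaks were thus found at 6 of 8 genes, while 87.2% of all genes had more, as the naïve list is the longer one. No gene of the 8 had more primed BRG1 peaks, which 2.51% of all genes had. The Poisson intervals at A4GALT were 16.2 to 36.9 in naïve and 0.242 to 7.22 in primed cells.

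BAF155, whose lists were of similar length in both states, gave naïve and primed counts of 11 and 3 at SUSD2, 20 and 7 at F11R, 25 and 9 at A4GALT, and 22 and 6 at ST6GAL1. At the primed markers the counts were 4 and 10 at THY1, 9 and 5 at CD24, 6 and 4 at B3GAT1, and 1 and 10 at PTPRZ1. More naïve peaks were called at 6 of 8 genes (54.8% of all genes) and more primed peaks at 2 of 8 (30.6% of all genes). The naïve and primed Poisson intervals were 13.8 to 33.3 and 2.20 to 13.1 at ST6GAL1, and 16.2 to 36.9 and 4.12 to 17.1 at A4GALT. The naïve share of BAF155 peaks was 75.7% at the naïve markers (interval 66.3 to 83.6%) and 40.8% at the primed markers (interval 27.0 to 55.8%), beside 51.7% over the genome. At a fold of at least 4 they were 14.3% (1 of 7 peaks) and 9.09% (1 of 11). In the whole lists 3146 naïve and 10985 primed BAF155 peaks reached that fold. For BRG1 the shares without this threshold were 88.6% and 60.6%, beside 78.8% over the genome.

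BRM was called at few places in primed cells, and 124 of the 20033 genes had a primed BRM peak in their window. It had no primed peak in any of the 8 windows, with an upper bound of 3.69 peaks per window. In naïve cells it had 7 peaks at SUSD2, 9 at F11R, 12 at A4GALT and 4 at ST6GAL1, against 2 at THY1, 1 at CD24, 2 at B3GAT1 and 0 at PTPRZ1. At least 1 naïve BRM peak was found at 7 of 8 genes, and at 70.2% of all genes. Of the 37 naïve BRM peaks in these windows 32 lay at naïve markers (86.5%, interval 71.2 to 95.5%), although the windows of the naïve markers covered 691 kb and those of the primed markers 718 kb. The share was 50% (2 of 4 peaks) at a fold of at least 4 and 66.7% (6 of 9) at a −log10 q of at least 3. Only 128 genes had more BRM peaks than A4GALT.

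**Figure D2:**
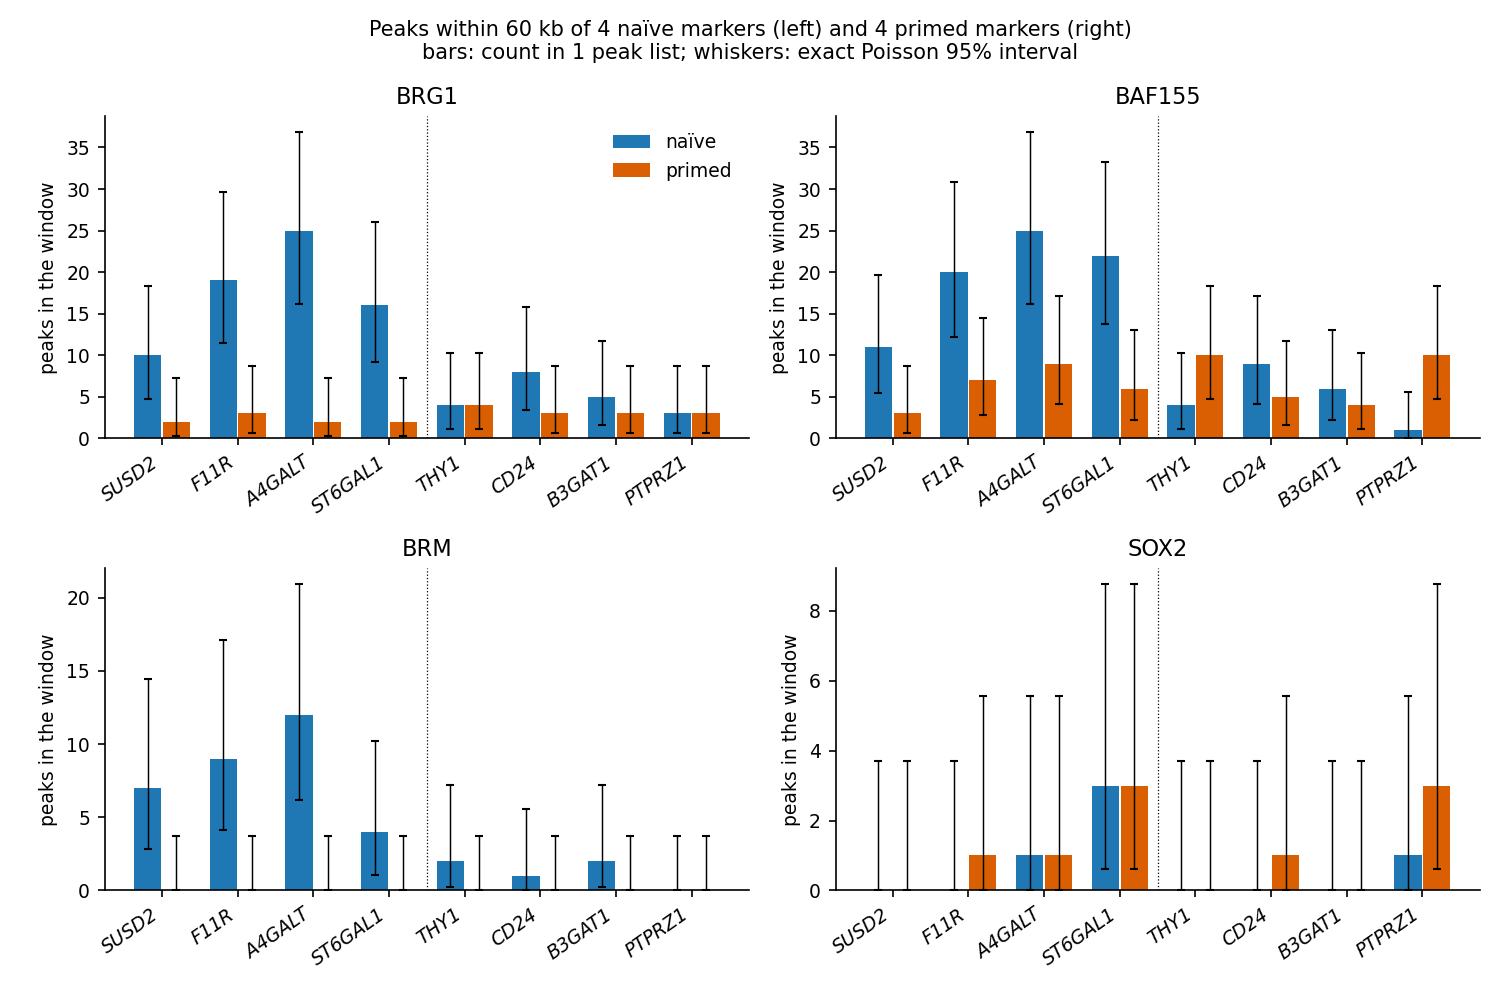
Peaks of each antibody in the windows of the 8 genes. Bars give the number of peaks (y axis) in the naïve (blue) and primed (orange) list per gene (x axis), whiskers are exact Poisson 95% intervals, and the dotted line parts naïve from primed markers. Naïve bars are the taller ones for BRG1, BAF155 and BRM at all 4 naïve markers, while THY1 and PTPRZ1 have 10 primed BAF155 peaks each against 4 and 1 naïve ones.

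BRM and BAF regions were then laid over each other. Among the 72 naïve-only regions at naïve markers 17 held a naïve BRM peak, and among the 19 common regions there 13 did. The 17 were 5 of 11 at SUSD2, 5 of 16 at F11R and 7 of 25 at A4GALT, with 0 of 20 at ST6GAL1. Over the genome 14.2% of naïve-only and 32% of common regions held a naïve BRM peak. Regions at naïve markers were wider, with medians of 640.5 bp (naïve-only) and 1376 bp (common), against 422 and 1113 bp over the genome. At the primed markers none of 11 naïve-only regions and 5 of 12 common regions held a BRM peak. Hence the 5 BRM peaks at THY1, CD24 and B3GAT1 lay in regions that carried BAF in both states. A single BRM peak at a naïve marker overlapped no BAF region of naïve cells. This site, chr22:24189767-24189996, lies 8.39 kb from the 5′ end of SUSD2, just past the end of the gene, and its BAF155 peak of 164 bp was called in primed cells. It is the SUSD2 BRM site printed above, where none of the searched letters were found.

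Promoters were compared next, as 1 kb on each side of any annotated transcription start site (TSS) of the gene. SUSD2 was the naïve marker whose promoter was occupied in the naïve state alone. BRG1 (chr22:24180313-24181377, fold 3.19), BAF155 (chr22:24180433-24181690, fold 3.17) and BRM (chr22:24180996-24181322, fold 3.11) were all called there in naïve cells, and no primed peak of any antibody was. THY1 and PTPRZ1 had the opposite pattern. At THY1, a primed BAF155 peak (chr11:119422205-119423592, fold 2.83) and a primed BRG1 peak (chr11:119423088-119423220, fold 3.71) lay at an internal TSS, with the midpoint of the BAF155 peak 2.09 kb inside the gene, and the 5′ end itself had no peak within 1 kb. At PTPRZ1, primed BAF155 (chr7:121872540-121874770, fold 3.65) and BRG1 (chr7:121872865-121873985, fold 3.39) covered the 5′ end, and a narrow primed BAF155 peak (chr7:122059622-122059841, fold 3.16) lay at an alternative start near the end of the gene.

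The other 5 promoters, of F11R, A4GALT, ST6GAL1, CD24 and B3GAT1, carried BRG1 and BAF155 in both states. In all, naïve BAF was found at 6 of 8 promoters (73% of all genes) and primed BAF at 7 of 8 (72.8% of all genes). Naïve BRM was called at the promoters of SUSD2, F11R, A4GALT and ST6GAL1 and at none of the 4 primed markers, so at 4 of 8, while 22.6% of all genes had it. ST6GAL1 also had naïve-only BAF within 1 kb of alternative start sites 67.4 kb (chr3:186997593-186997902), 91.4 kb (chr3:187021287-187022234) and 142 kb (chr3:187071732-187072968) inside the gene. B3GAT1, although a primed marker, had a naïve-only region at an alternative start 25.2 kb inside the gene (chr11:134386890-134387288).

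Around A4GALT the naïve-only regions formed the densest group of the 8 windows. The gene lies on the minus strand (chr22:42692121-42721298), and 11 naïve-only regions stood upstream of it, all with the A4GALT TSS as the nearest protein-coding one. The widest of them spans 4623 bp about 18.7 kb upstream. A naïve BRM peak of 5088 bp covered most of it, and so did a naïve BAF155 peak of 3390 bp. Within it sat the strongest naïve SOX2 peak of the 8 genes, with a fold of 16.1, which placed it 77th among the 1940 peaks of the list. Of its 32-base words 38.2% occur more than once in hg38, as do 43.4 to 46.5% of those of the wide BRG1, BAF155 and BRM peaks on it, and reads from such words can have more than 1 possible origin. No primed peak was called on it.

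In primed cells a separate SOX2 peak (chr22:42743568-42743801, fold 5.78) lay 22.4 kb upstream of A4GALT in a common BAF region, and it overlaps the printed A4GALT BRM site. In the remaining A4GALT window, 7 of 25 naïve-only regions were nearest to CYB5R3 or ATP5MGL and not to A4GALT.

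At SUSD2 (chr22:24181487-24189106) the naïve-only regions stood on the far side of the gene. Apart from the promoter region, 10 lay downstream, and 8 of them were nearest to GGT5, a neighbouring gamma-glutamyltransferase gene. The strongest naïve BRG1 and naïve BAF155 peaks of the window, at chr22:24238010-24238318 (fold 4.05) and chr22:24238027-24238463 (fold 3.46), lie in an intron, with GGT5 as the nearest gene. The sole common regions of the window were 1 at the CABIN1 promoter and 1 in an exon nearest to GGT5. Counting regions nearest to SUSD2 alone left 3 naïve-only and 1 primed-only region.

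F11R (chr1:160995211-161021343) lies in the most crowded window, with 6 other protein-coding genes. Of its 16 naïve-only regions 4 were nearest to F11R, namely 2 in introns of the gene, 1 upstream and 1 downstream. One of the 2 intronic regions held the strongest naïve BRG1 peak of the window (chr1:161008897-161009208, fold 4.15), and 96.1% of its list had the same or a lower fold. The BRM peak of highest fold (4.62) stood at an annotated start site whose nearest protein-coding gene is ARHGAP30. The primed SOX2 peak, chr1:160981594-160981838 with a fold of 6.14, lay 39.6 kb from the 5′ end in a common BAF region nearest to ITLN2, and its printed window held TFAP2 but no SOX letters. When regions nearest to another gene were left out, 36 of the 72 naïve-only regions remained at the naïve markers, and 18 of these belonged to A4GALT.

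ST6GAL1 (chr3:186930325-187078553) was the gene with the most SOX2 peaks in naïve cells. It had 3, a number that 17 of 20033 genes exceeded, and 3 in primed cells. A naïve SOX2 peak was found at 3 of 8 genes (13.2% of all genes), namely A4GALT, ST6GAL1 and PTPRZ1, and a primed one at 5 of 8 (42.6% of all genes), namely these 3, F11R and CD24. At ST6GAL1, 2 sites were called in both states. The first, 36.5 kb upstream (chr3:186893755-186893982), had folds of 8.45 in naïve and 9.03 in primed cells, but 83.8% of the 32-base words of its naïve peak were repeated in hg38. The second, 68.8 kb inside the gene in an intron (chr3:186998978-186999355 in primed cells), had a fold of 10.7 in primed and 4.24 in naïve cells, and none of its words were repeated. The common region around it held BRG1 and BAF155 peaks in both states and a BRM peak in naïve cells. The remaining peaks were a primed one near the 5′ end (chr3:186931164-186931629, fold 11.5) and a naïve one at the alternative start site 142 kb inside (chr3:187072698-187072929, fold 6.84).

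**Figure D3:**
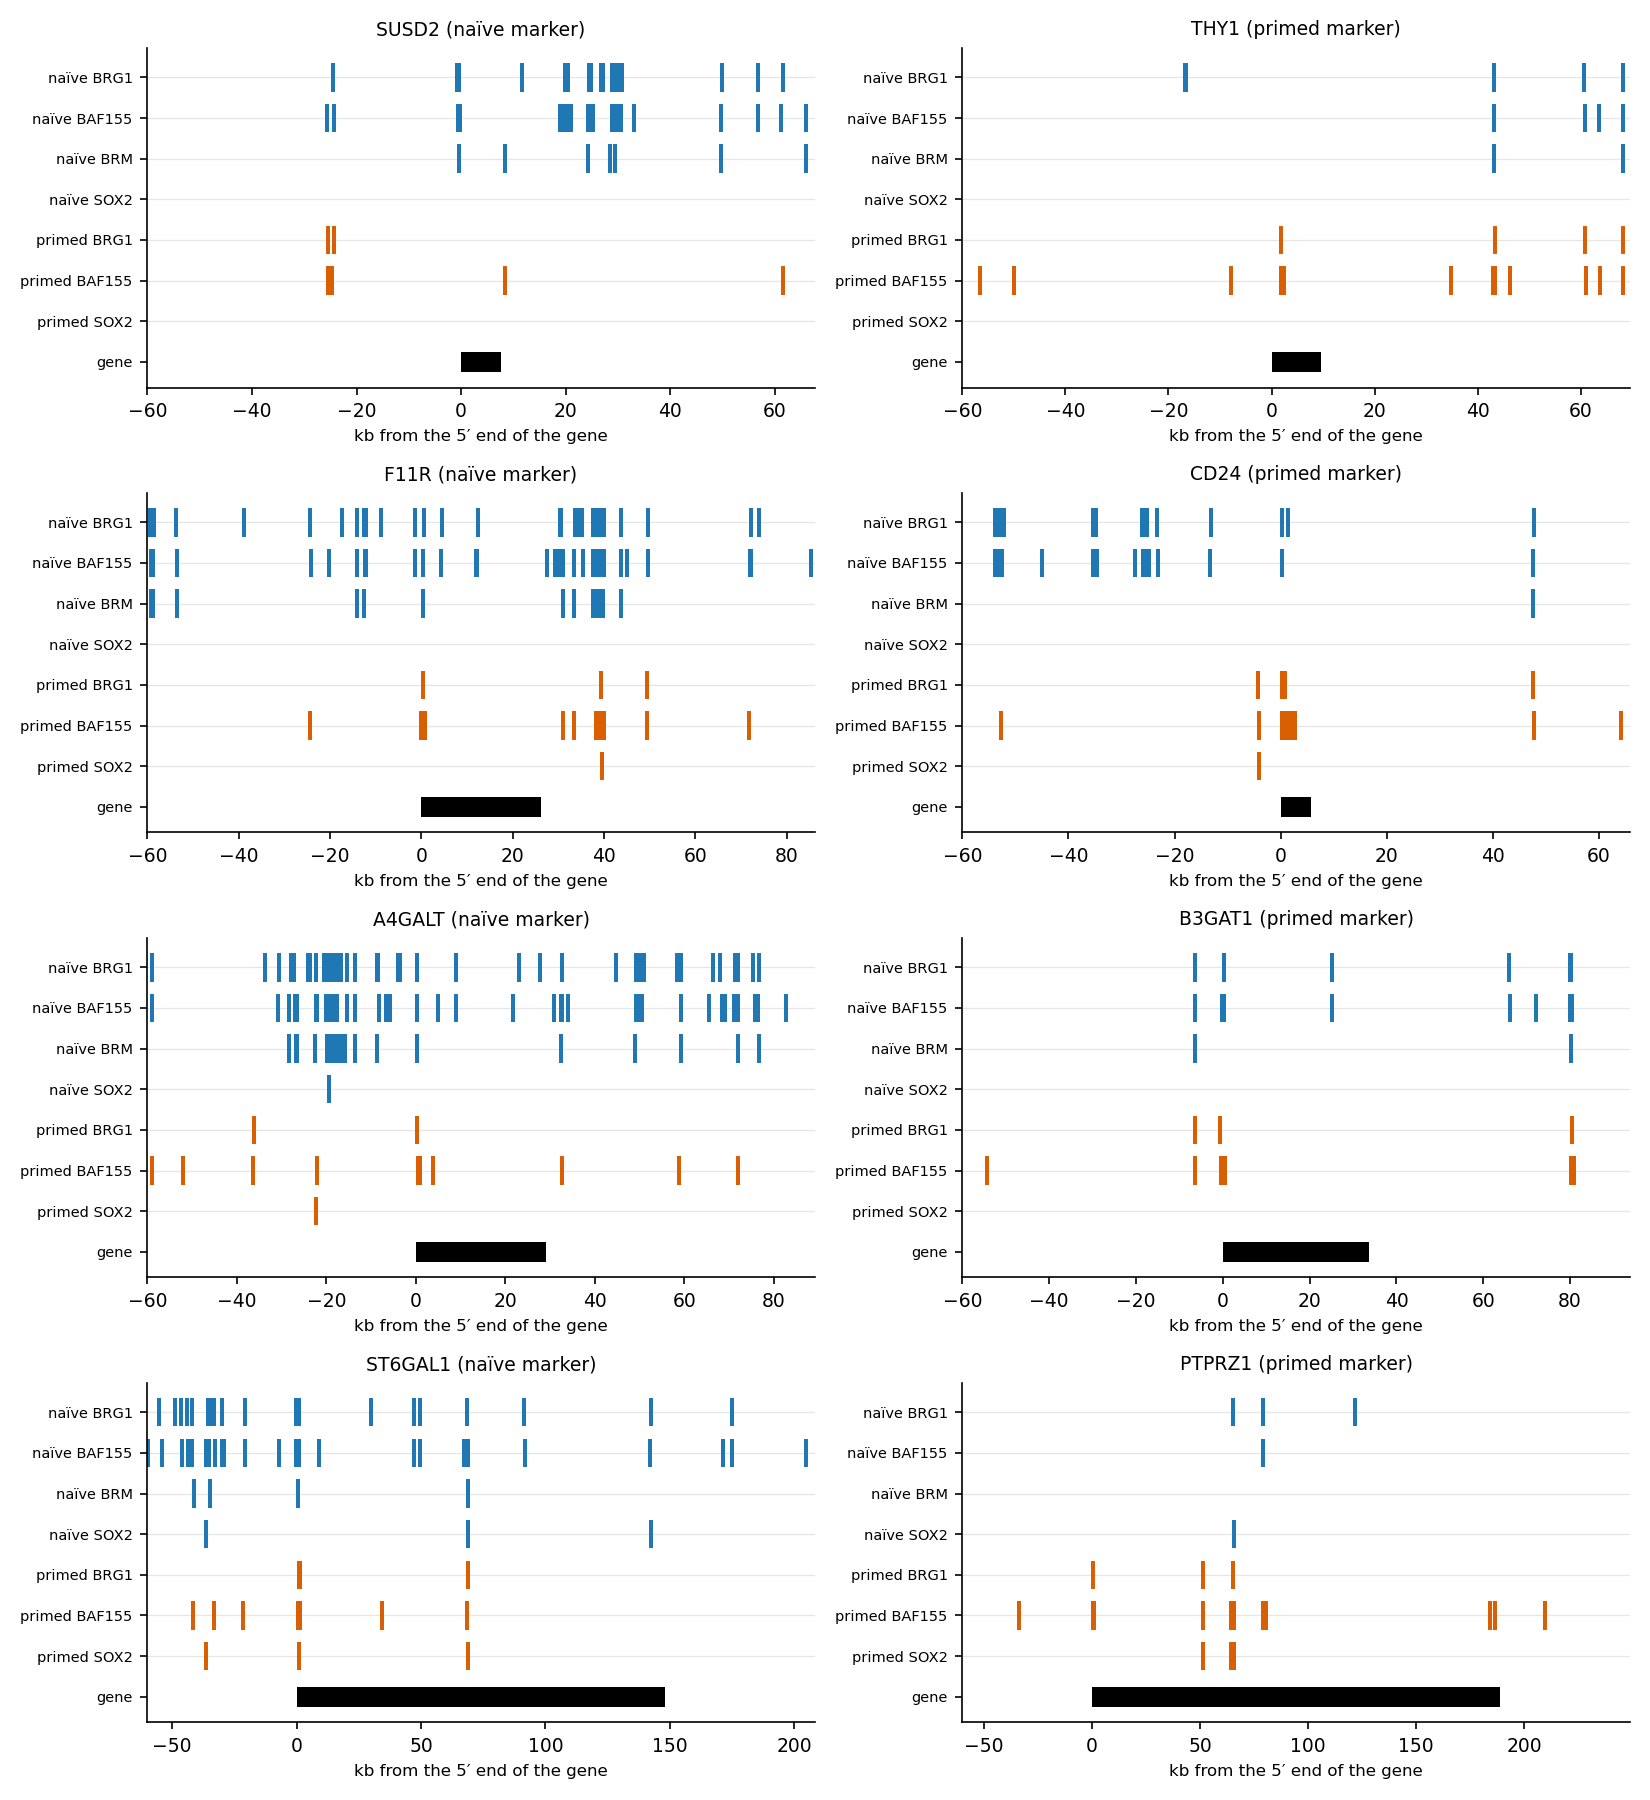
Positions of all peaks around the 8 genes. The x axis is the distance in kb from the 5′ end in the direction of transcription, each row is 1 peak list (blue naïve, orange primed), marks are peaks drawn to scale with a minimum width for visibility, and the black bar is the gene body. Naïve BRG1, BAF155 and BRM marks crowd upstream of A4GALT and downstream of SUSD2, and primed SOX2 marks at PTPRZ1 cluster between 51.4 and 65.6 kb inside the gene.

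PTPRZ1 (chr7:121873089-122062036) had the most primed-only regions of the 8 genes, in the widest window. Per 100 kb it had 2.59, and THY1 had 4.63. Of the 8 regions 2 had a BRG1 peak and the other 6 rested on BAF155 alone. In the gene body lay 6 of the 8, and 3 sites inside it combined SOX2 with BAF. In primed cells SOX2 was called at chr7:121924344-121924654 (fold 6.83, 51.4 kb from the 5′ end), chr7:121937300-121937576 (fold 6.08, 64.4 kb) and chr7:121938456-121938891 (fold 25.4, 65.6 kb). The last of these ranked 41st of 9290 primed SOX2 peaks. It was also called in naïve cells, at chr7:121938474-121938839, with a fold of 8.16 and rank 724 of 1940. A BRG1 peak lay on it in both states, whereas the wide BAF155 peak on it (1375 bp, fold 4.70) was called in primed cells. The first 2 sites had no naïve peak of any antibody. The printed PTPRZ1 site held ACAAAG, which is CTTTGT on the other strand. Folds of the 2 SOX2 lists come from different libraries. They were set against each other only to choose the printed SOX2 sites.

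At THY1 (chr11:119415476-119424985) all 4 common regions were nearest to USP2, a deubiquitinase gene, and none to THY1. The 5 state-specific regions nearest to THY1 comprised 4 primed-only ones and 1 naïve-only one, a BRG1 peak 16.7 kb upstream (chr11:119441548-119441803) in which 80.9% of the 32-base words were repeated. Of the 6 primed-only regions 1 had a BRG1 peak, the one within the gene, and the other 5 rested on BAF155 alone. No SOX2 peak was called in the window in either state.

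CD24 (chr6:106969831-106975627) had BAF in both states over its promoter, and the primed BAF155 peak there was wide (chr6:106972614-106975823, 3210 bp, fold 3.56) where the naïve one was narrow (chr6:106975061-106975711, fold 2.52). State-specific regions upstream lay at different distances. A primed-only region with BRG1, BAF155 and SOX2 (chr6:106979396-106980161) stood 4.15 kb upstream, and 6 naïve-only regions stood 13.1 to 45.0 kb upstream, 3 of them nearest to MTRES1. The SOX2 peak (chr6:106979602-106979992, fold 5.92) was among the weaker ones of its list, of which 34.2% had the same or a lower fold, and its printed window held the OCT letters but no SOX letters. CD24 has near-identical processed copies elsewhere in the genome. Up to 46.0% of the 32-base words of a CD24 peak were repeated, and copies of words with mismatches were not counted.

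B3GAT1 (chr11:134378504-134412242) had few peaks, but its strongest naïve peaks and its strongest primed BAF155 peak stood high in their lists. At 6.40 kb upstream, naïve BRM (chr11:134418523-134418772) reached a fold of 6.91, 87th of 17413, naïve BRG1 a fold of 5.71, 278th of 57884, and naïve BAF155 a fold of 5.27, 595th of 62338. In primed cells BAF155 reached 6.75 at this site, 596th of 58352, and BRG1 4.38, 1835th of 15611. The site is a common region in an intron of an overlapping transcript, so the window of this primed marker had its highest occupancy in both states and no SOX2 peak in either.

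The strength of the peaks was also compared. Peaks were ranked within their own list, so that 50 is the middle of the list. The 70 naïve BRG1 peaks at naïve markers had a median percentile of 34.1 and the 78 naïve BAF155 peaks 37.6, whereas the 20 naïve BRG1 and 20 naïve BAF155 peaks at primed markers had medians of 56.8 and 58.1. For naïve BRM the medians were 33.9 over 32 peaks and 73.1 over 5. The naïve markers thus had many naïve peaks that were weak for their lists. In primed cells the medians for BAF155 were 50.3 at naïve and 65.6 at primed markers, over 25 and 29 peaks. Primed BRG1 differed little, with 54.6 over 9 peaks and 58.4 over 13. Primed SOX2 ran the other way, with 74.7 over 5 peaks at naïve and 44.1 over 4 at primed markers. Of these 5 peaks 3 lay at ST6GAL1, and the 1 at the median had 83.5% repeated 32-base words.

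**Figure D4:**
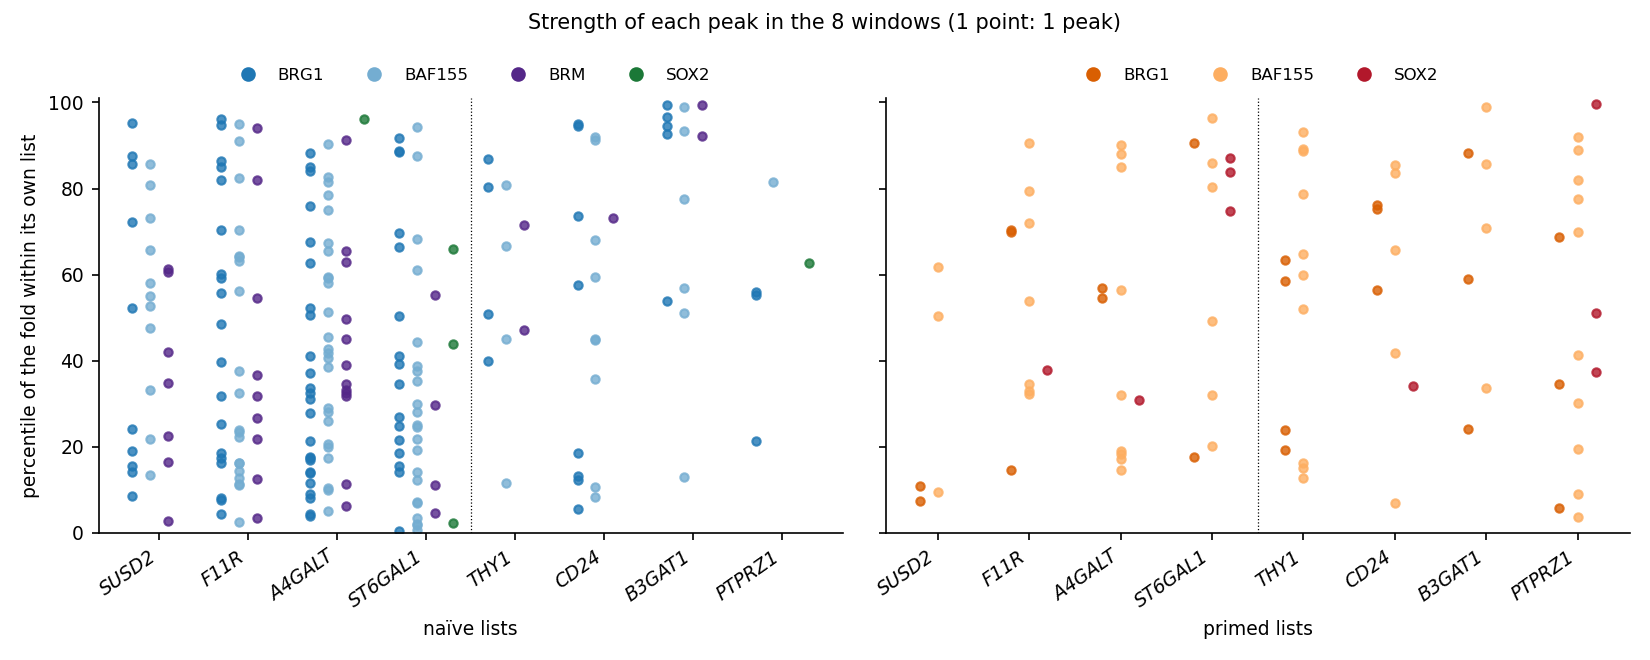
Strength of each peak in the 8 windows. Each point is 1 peak, the y axis is the percentile of its fold among all peaks of the same list, and colours name the antibody, for naïve lists on the left and primed lists on the right. B3GAT1 has naïve BRG1 and BRM points above 99, the PTPRZ1 SOX2 point in primed cells stands at 99.6, and most naïve points at the 4 naïve markers lie below 50.

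The letters of transcription factors were about as frequent in these regions as elsewhere. SOX letters stood in 13 of 72 naïve-only regions at naïve markers (18.1%, interval 9.98 to 28.9%), with 22.3% over all naïve-only regions, and in 6 of 17 primed-only regions at primed markers (35.3%, interval 14.2 to 61.7%), with 34.9% over all primed-only regions. KLF letters stood in 3 of the 72 (4.17%, with 5.52% over all) and TFAP2 letters in 4 (5.56%, with 10.7% over all). SOX letters were found in 5 of 5 naïve and 7 of 9 primed SOX2 peaks, beside 59.0% and 59.5% of the whole lists. The 2 primed SOX2 peaks without them were those of F11R and CD24.

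RefSeq promoters (GRCh38.p14, 250 bases before and 50 after the start) were matched for 5 of the 8 genes, A4GALT, ST6GAL1, CD24, B3GAT1 and PTPRZ1. The GC content was 73.3% at PTPRZ1 and 81.0% at B3GAT1, and 64.0% at ST6GAL1, beside a median of 58.7% over 35116 promoters. A4GALT had 2 entries, of 81.0% and 43.3%, and CD24 had 3, of 63.3% to 73.7%. KLF letters were found at B3GAT1 and at the GC-rich A4GALT promoter, and in 18.4% of all promoters. PTPRZ1, the promoter with primed BAF alone, held none of the 6 sets of letters.

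Related genes were counted in the same way. Among 9 enzymes of the same glycan routes, 5 windows had more naïve-only and 4 more primed-only regions, where 66.1% and 21.2% of all windows did. Of the glycolipid enzymes that act before A4GALT, UGCG, which makes glucosylceramide, had 18 naïve-only and 0 primed-only regions. B4GALT5, which makes lactosylceramide, had 20 and 6. Other enzymes of the list went both ways, with 15 and 1 at ST3GAL2, 6 and 2 at B4GALT6, 1 and 0 at B3GALNT1, and 4 and 5 at B3GALT5. ST6GAL2, the paralogue of ST6GAL1, had 0 and 5. B3GAT2, a paralogue of B3GAT1, had 1 and 2, and so had CHST10, which sulfates the HNK-1 epitope. Among 8 ligands and partners, 3 windows had more naïve-only regions, 4 more primed-only and 1 equal numbers. Of the partners of PTPRZ1, PTN had 1 naïve-only and 3 primed-only regions, CNTN1 1 and 6, TNR 2 and 3, and MDK 10 and 3. SIGLEC10, a receptor for CD24, had 10 and 3, and the F11R relatives JAM2 and JAM3 had 2 and 1, and 3 and 7.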

How the data were processed

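The ChIP-seq reads of WIBR3 cells were trimmed with trim_galore, mapped to hg38 with bowtie2 (2.3.4 per the submitters' processing notes), cleared of duplicates and passed to MACS2 by the authors, with an input as control, as broad peaks for BRG1, BAF155 and BRM and narrow peaks for SOX2. BAF libraries were single-end and SOX2 libraries paired-end, from different sequencers. The deposited lists hold positions and, except for primed BRM and the second SOX2 list of each state, a score, a fold enrichment over input (a ratio) and 2 significance columns, the −log10 p-value and −log10 q-value. The deposited score was not used, and folds served to rank or filter peaks within a list. Whether the SOX2 libraries were pooled before calling is not given in the sources used here.

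Windows, overlaps, nearest start sites, motifs and repeated 32-base words were computed with Python 3.11.15, pandas 2.3.3 and SciPy 1.17.1 from GENCODE release 44 and hg38, and the functions were tested on simulated data and against bedtools 2.31.1. Shares have Clopper-Pearson and counts Poisson intervals. No test was made with 1 library a group. Named sites were, per gene and list, the peak of highest fold, peaks within 1 kb of a start site of the gene, all SOX2 peaks and up to 5 BRM peaks. For printed sequences an exonic window gave way to the next peak by fold, and regions named for their class or position were chosen after their values were seen. The genes and lists were chosen with earlier results of these data known. Alternatives were other flanks, thresholds, overlap rules, list lengths, promoter radii and motif windows, single subunits and leaving out each gene. A further gene list and 1 site sequence are not reported here.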

Additional observations from a re-analysis of the deposited data

How the results depend on the processing

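No paired analysis was possible because each group had 1 list and no result comes from a test. The share of naïve-only among state-specific regions at the naïve markers, 92.3%, was 33.3% at a fold of at least 4, 80.8% at a −log10 q of at least 3, and 82.7% where 50% of both regions had to overlap. At the primed markers, 39.3% became 11.1% at the higher fold, 70.6% from BRG1 peaks alone and 52.6% without PTPRZ1. Over the genome this share was 61.4% as reported, 22.2% at the higher fold and 90.1% from BRG1 peaks alone. The naïve share of BRG1 peaks at naïve markers, 88.6%, was 66.7% (2 of 3 peaks) at the higher fold and 95.8% (23 of 24) at the stricter q. At equal list lengths it was 62.5% (15 of 24), and at primed markers 60.6% became 40.9% (9 of 22). The whole BRG1 lists kept 2927 naïve and 3383 primed peaks at the higher fold, and 16144 and 4482 at the stricter q. At equal lengths they kept 15611 each, where the naïve share over the genome had been 78.8% as reported. The naïve share of BAF155 peaks was 14.3% and 63.6% at naïve markers and 9.09% and 24.0% at primed markers, at the higher fold and the stricter q. The whole BAF155 lists kept 3146 naïve and 10985 primed peaks at the higher fold, and 17665 and 27065 at the stricter q. With equal SOX2 lists of 1940 peaks each, the naïve share of SOX2 peaks at naïve markers went from 44.4% (4 of 9 peaks) to 66.7% (4 of 6). Over the genome this share was 17.3% with the lists as reported, which were of unequal length. The naïve marker share of BRM peaks was 50.0% and 66.7% at the higher fold and stricter q. For single genes, the naïve-only minus primed-only count turned at the higher fold to -3 at A4GALT, -2 at ST6GAL1 and -1 at CD24. Over whole regions the letters were found more often, since longer sequences were searched. At naïve markers they stood in 12.5% (KLF), 23.6% (TFAP2) and 48.6% (SOX) of naïve-only regions. Over all naïve-only regions these shares were 11.6%, 22% and 43.3%. SOX letters stood in 64.7% of primed-only regions at primed markers, beside 56.5% of all primed-only regions. The causes of the other changes were not tested. Naïve BAF lists had the lower median folds, 2.93 for BRG1 and 2.89 for BAF155 against 3.54 and 3.28 in primed cells, so a fold threshold removes more naïve peaks. Promoter counts were the same at radii of 500 bp and 2 kb, and at the 5′ end alone primed BAF was called at 3 instead of 4 primed markers. Read totals were not used.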

Other observations

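Surface proteins that both states carry were counted beside the markers. The windows of PODXL, EPCAM, CD9 and ALPL all had more naïve-only than primed-only BAF regions, with 4 and 3, 12 and 4, 14 and 1, and 12 and 4, and all 4 promoters carried BAF in both states. Over all protein-coding genes 66.1% of windows had more naïve-only regions. Of 2 further naïve markers, CD7 had 16 naïve-only and 1 primed-only region and IL6ST had 8 and 0. Naïve BRM peaks numbered 0 at CD7 and 3 at IL6ST, and 2 at PODXL, 2 at EPCAM, 9 at CD9 and 3 at ALPL.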
